A study of Homo sapiens with 6 samples.

Results

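The genes examined were 28 genes of cholesterol synthesis, uptake and control, all found among the 33451 genes of the deposited count table. They were chosen by name for their role, with earlier results of these data known. They comprise 18 enzymes that build cholesterol from acetyl units, 5 genes that control the pathway (INSIG1, INSIG2, SCAP, SREBF1 and SREBF2), and 5 genes of uptake, transport and storage (STARD4, NPC1, NPC2, MYLIP and SOAT1). They are not the whole pathway, and its remaining genes were not analysed here unless named below. The libraries were made from mRNA of MDA-MB-453, an established human breast cancer cell line, cultured until day 5 in medium with 10% serum. One group of 3 libraries received 100 nM 25(OH)D, the circulating form of vitamin D, and the control group of 3 libraries received the alcohol solvent. The growth medium, and with it the cholesterol supplied by serum, was the same in both groups as far as the labels say. All libraries come from 1 cell line. The paper's methods speak of biological replicates, and the labels do not say whether these were separate cultures. The p-values therefore set the difference between the groups against the spread between these libraries.

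Cells make cholesterol from acetyl-CoA through mevalonate, isoprenoids and squalene, and then through lanosterol and a chain of later sterols. The output is set by the SREBP transcription factors, which are held in the endoplasmic reticulum by SCAP and the INSIG proteins while sterols are plentiful, and which travel to the Golgi for cleavage when sterols run low. Their cleaved forms enter the nucleus and switch on the enzymes, the uptake genes and INSIG1. The pathway also touches vitamin D directly, since DHCR7 converts 7-dehydrocholesterol, the precursor of vitamin D in skin, into cholesterol, and 25(OH)D has been described as a ligand that promotes the loss of SCAP protein. The comparison of 25(OH)D with control asks how the transcripts of this pathway stood after culture with 25(OH)D.

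Of the 28 genes, 25(OH)D cultures had 19 at a higher and 2 at a lower level, and 7 did not pass the test. The test was the quasi-likelihood test of edgeR on the counts, with Benjamini-Hochberg adjustment (adjusted p) over the 18183 genes tested and a threshold of 0.05. SE below is the standard error of the fitted log2 fold change. Across all genes tested, 17.3% were called higher and 16.5% lower. The share of higher calls among the 28 genes, 67.9%, stood well over the background and that of lower calls, 7.14%, below it. Because the 28 genes were chosen with earlier results of these data known, this excess is a description and was not tested. The 28 genes are well expressed, which eases a call. Among the 9826 genes with a mean of at least 300 counts, which include 27 of the 28, the shares were 24.1% higher and 23.1% lower. The median log2 fold change of the 28 genes was 0.33, beside -0.011 over all genes tested. A positive value was found for 25 of the 28, beside 48.7% of all genes tested. Most changes were small. SOAT1 alone passed the limits that the study drew in its volcano plot. These were a log2 fold change beyond 1 in either direction with p under 0.05 before adjustment. In the fit used here 6.65% of all genes tested passed them, which is not the study's own count. In CPM, counts scaled to a common library size with TMM factors, every 25(OH)D library lay above every control library for 24 genes and below for 2, and the groups overlapped for ACAT2 and STARD4. Such a separation was seen in 45.7% of all genes tested. By RPKM, which scales by gene length and library total without TMM factors, 23 of the 28 genes were separate. On that scale ACAT2, MVD, HSD17B7, SCAP and SREBF2 overlapped, and 8459 of the 18183 genes tested were separate.

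**Figure D1:**
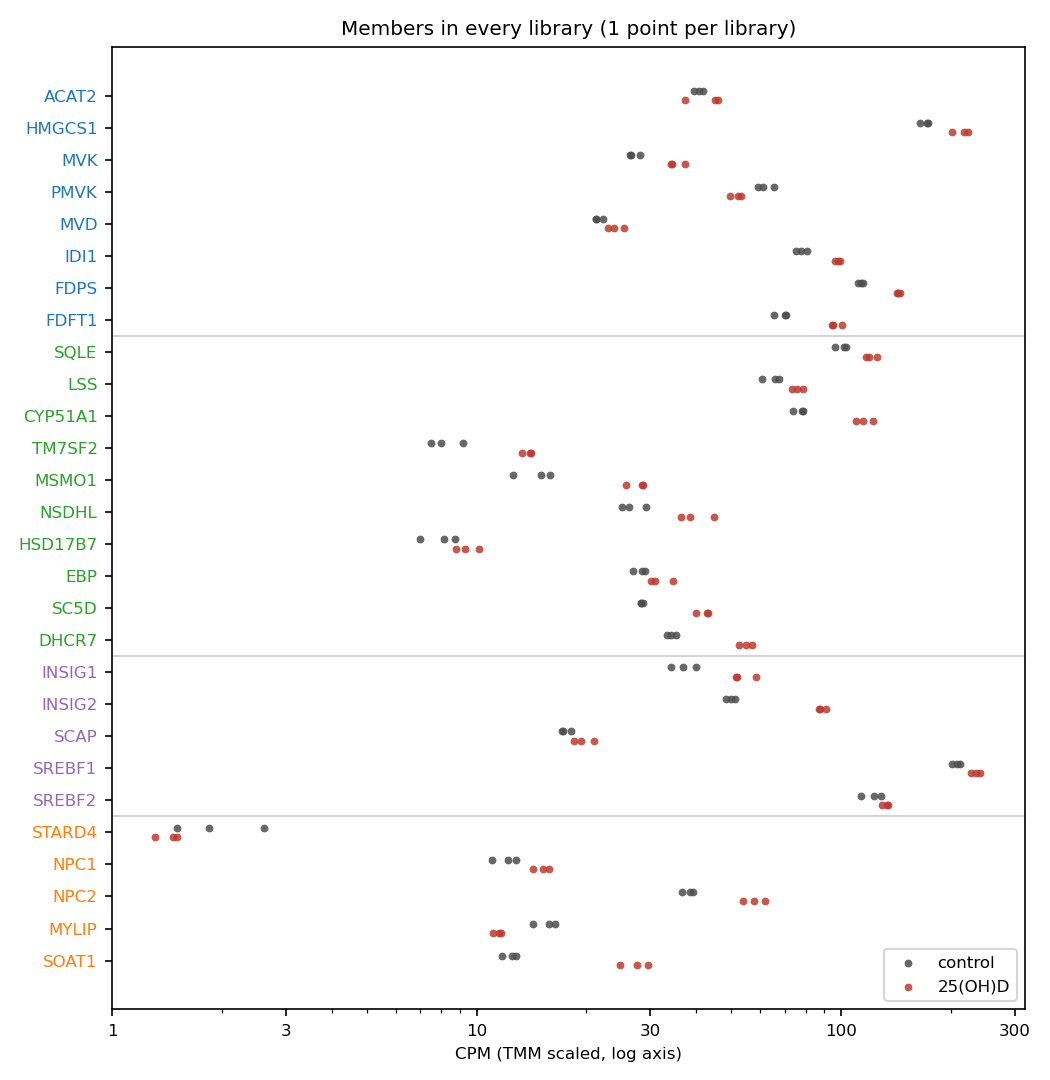
CPM of each of the 28 genes (log axis) in the 3 control libraries (grey) and the 3 25(OH)D libraries (red), 1 point per library, grouped by role from the early enzymes at the top to transport and storage at the bottom. The red points lie to the right of the grey ones for 24 genes and to the left for PMVK and MYLIP.

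The libraries held between 33268860 and 40928176 counts. Genes of the mitochondrial genome took between 7.85% and 7.99% of the control libraries and between 8.89% and 9.24% of the 25(OH)D libraries, and in a fit without those genes 21 of the 28 genes were higher and 2 lower. The labelled cell type was checked by the epithelial and luminal markers KRT8, KRT18, KRT19, EPCAM, GATA3 and FOXA1, all present in every library, with a summed RPKM (counts scaled by gene length and library total) of 1063 to 1104 in control and 961.9 to 978.0 in 25(OH)D. They did not move together. GATA3, FOXA1 and KRT19 were lower, with log2 fold changes of -0.80, -0.46 and -0.41, KRT8 and KRT18 were higher, with 0.14 and 0.10, and EPCAM did not pass, with 0.072, and the part of these shifts in the results was not tested. Of 8 markers of other cells, 6 did not pass the low-count filter, among them the leukocyte marker PTPRC with at most 6 counts in a library and the T cell marker CD3E at 0 in all libraries but 25(OH)D replicate 2. Their summed RPKM rose from between 5.93 and 6.61 to between 9.26 and 12.1, through CD68, a lysosomal membrane protein used as a macrophage marker, which went from 1.86 to 2.59 RPKM in control to 5.87 to 8.62 in 25(OH)D, and its part in the results was not tested. COL1A1, a fibroblast collagen and the largest part of the control sum, was lower, from between 3.69 and 3.99 to between 3.195 and 3.426 RPKM (log2 fold change -0.18, adjusted p = 0.0320). In bulk RNA, a change in the number of cells that express a gene and a change per cell cannot be told apart.

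The early steps, from acetyl units to squalene, had the highest summed level of the 4 roles and the smallest ratio between the groups. Of the 8 enzymes 5 were higher, 62.5%, 1 was lower, 12.5%, and 2 did not pass. Over all genes tested 17.3% were higher and 16.5% lower. HMGCS1, the synthase that condenses acetoacetyl-CoA with acetyl-CoA, had 173, 172 and 164.5 CPM in control and 223, 217 and 202 in 25(OH)D. The groups were separate, with a log2 fold change of 0.33 (SE 0.0443, adjusted p = 4.04e-05). MVK, mevalonate kinase, had 28.1, 26.6 and 26.4 CPM in control and 34.25, 37.3 and 34.4 in 25(OH)D, a log2 fold change of 0.39 (SE 0.0636, adjusted p = 0.000274). The next kinase of the pathway went the other way. PMVK, phosphomevalonate kinase, had 61.2, 59.1 and 65.6 CPM in control and 53.3, 52.3 and 49.6 in 25(OH)D, a log2 fold change of -0.26 (SE 0.0563, adjusted p = 0.00234). It was the only enzyme of the 18 that was lower, and by RPKM the most abundant of the 28 genes in control, with 49.1 ± 2.43 RPKM against 39.8 ± 1.57 in 25(OH)D (SD, n = 3 each).

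After PMVK the fold changes were positive again. MVD, the decarboxylase that makes isopentenyl diphosphate, had 22.2, 21.3 and 21.3 CPM in control and 25.35, 23.9 and 23.0 in 25(OH)D, and the difference did not pass (log2 fold change 0.16, adjusted p = 0.0940). IDI1, the isomerase of that product, rose from 77.7 ± 2.65 to 98.0 ± 1.59 CPM (SD, n = 3 each), which is 0.33 on the log2 scale (SE 0.0458, adjusted p = 5.15e-05). FDPS, which joins isoprene units into farnesyl diphosphate, had 111, 114 and 115 CPM in control and 142.5, 143.8 and 145.2 in 25(OH)D, a log2 fold change of 0.34 (SE 0.0399, adjusted p = 1.04e-05). Its replicates lay within a few CPM of each other in both groups. FDFT1, squalene synthase, commits farnesyl diphosphate to sterols, and had the largest rise of the early enzymes, from 70.7, 70.2 and 65.5 CPM to 94.8, 100.5 and 94.6 CPM, a log2 fold change of 0.49 (SE 0.0498, adjusted p = 2.70e-06). ACAT2, the cytosolic thiolase at the entry, overlapped between the groups, with 39.55 to 41.9 CPM in control and 37.3 to 45.9 in 25(OH)D (log2 fold change 0.070, adjusted p = 0.512). The lowest 25(OH)D value was that of replicate 3, and without this library the log2 fold change was 0.17 with an adjusted p of 0.0464. ACAT2 shares 1850 of its 4299 exon bases with SOD2 on the other strand.

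The later steps run from squalene to cholesterol. All 10 enzymes had a positive log2 fold change, beside 48.7% of all genes tested, with a median of 0.57. Of these enzymes 8 passed the test, 80%, beside 17.3% of all genes tested that were higher. The smallest rises that passed were those of SQLE and LSS. SQLE, the squalene epoxidase that feeds the ring closure, had 102, 103 and 96.4 CPM in control and 117.4, 119.6 and 125.4 in 25(OH)D, a log2 fold change of 0.26 (SE 0.0459, adjusted p = 0.000443). LSS, the cyclase that makes lanosterol, rose from 64.7 ± 3.47 to 76.1 ± 2.54 CPM (SD, n = 3 each), which is 0.23 on the log2 scale (adjusted p = 0.00360). Demethylation of lanosterol comes next. CYP51A1, the lanosterol demethylase, had 73.9, 78.7 and 78.4 CPM in control and 114.9, 109.7 and 122.7 in 25(OH)D, a log2 fold change of 0.59 (SE 0.0514, adjusted p = 5.92e-07). LRRD1 shares 3211 of the 4074 exon bases of CYP51A1 on the same strand and had a nearly equal log2 fold change of 0.59, so the reads of these 2 genes cannot be told apart.

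MSMO1, the methylsterol monooxygenase of the demethylation at carbon 4 (chromosome 4, 165327623 to 165343160, plus strand of GRCh38), had the largest rise of all 18 enzymes. It had 15.95, 15.04 and 12.63 CPM in control and 25.7, 28.5 and 28.6 in 25(OH)D, with a wide gap between the groups. The log2 fold change was 0.92 (SE 0.0893, adjusted p = 1.72e-06), and when single libraries were dropped it ranged from 0.84 to 1.0006. NSDHL, the dehydrogenase that acts after MSMO1, had 25.1, 26.2 and 29.2 CPM in control and 38.5, 36.4 and 44.8 in 25(OH)D, a log2 fold change of 0.57. HSD17B7, the ketoreductase that closes the same round, was low, with 7.01 to 8.75 CPM in control and 8.765 to 10.2 in 25(OH)D, and did not pass (log2 fold change 0.24, SE 0.112, adjusted p = 0.116). The differences between the fold changes of these enzymes were not tested. The RPKM of MSMO1 as a ratio to that of HMGCS1 was 0.150, 0.142 and 0.125 in control and 0.187, 0.214 and 0.230 in 25(OH)D, which do not overlap (two-sided exact permutation p = 0.1, the smallest that 3 against 3 allows).

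TM7SF2, a sterol reductase of the step after CYP51A1, had 7.49, 7.985 and 9.18 CPM in control and 14.05, 13.3 and 14.15 in 25(OH)D, a log2 fold change of 0.75 (SE 0.0983, adjusted p = 3.37e-05). LBR, which encodes the other enzyme with this activity and is also an inner nuclear membrane protein, fell from 104.2 ± 6.42 to 79.6 ± 1.99 CPM (SD, n = 3 each), which is -0.39 on the log2 scale (SE 0.0518, adjusted p = 4.16e-05). EBP, the sterol isomerase, did not pass, with 26.87 to 28.98 CPM in control and 30.2 to 34.7 in 25(OH)D (log2 fold change 0.18, adjusted p = 0.0576). It passed without 25(OH)D replicate 2 (adjusted p = 0.0479), without 25(OH)D replicate 3 (adjusted p = 0.0476) or without mitochondrial genes (adjusted p = 0.0442), in a range of 0.0442 to 0.228. SC5D, the desaturase that makes 7-dehydrocholesterol, had 28.65, 28.3 and 28.3 CPM in control and 43.04, 39.98 and 42.78 in 25(OH)D, a log2 fold change of 0.56 (SE 0.0588, adjusted p = 3.81e-06). DHCR7, which turns 7-dehydrocholesterol into cholesterol (chromosome 11, 71428193 to 71452868, minus strand of GRCh38), had 34.2, 33.3 and 35.25 CPM in control and 57.0, 52.5 and 54.8 in 25(OH)D. This was a log2 fold change of 0.68 (SE 0.0566, adjusted p = 3.79e-07), a rise of 1.60-fold. The enzymes that make and that use 7-dehydrocholesterol were both higher, and the ratio of DHCR7 to SC5D in RPKM was 1.61 ± 0.0489 in control and 1.75 ± 0.0301 in 25(OH)D (SD, n = 3 each).

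**Figure D2:**
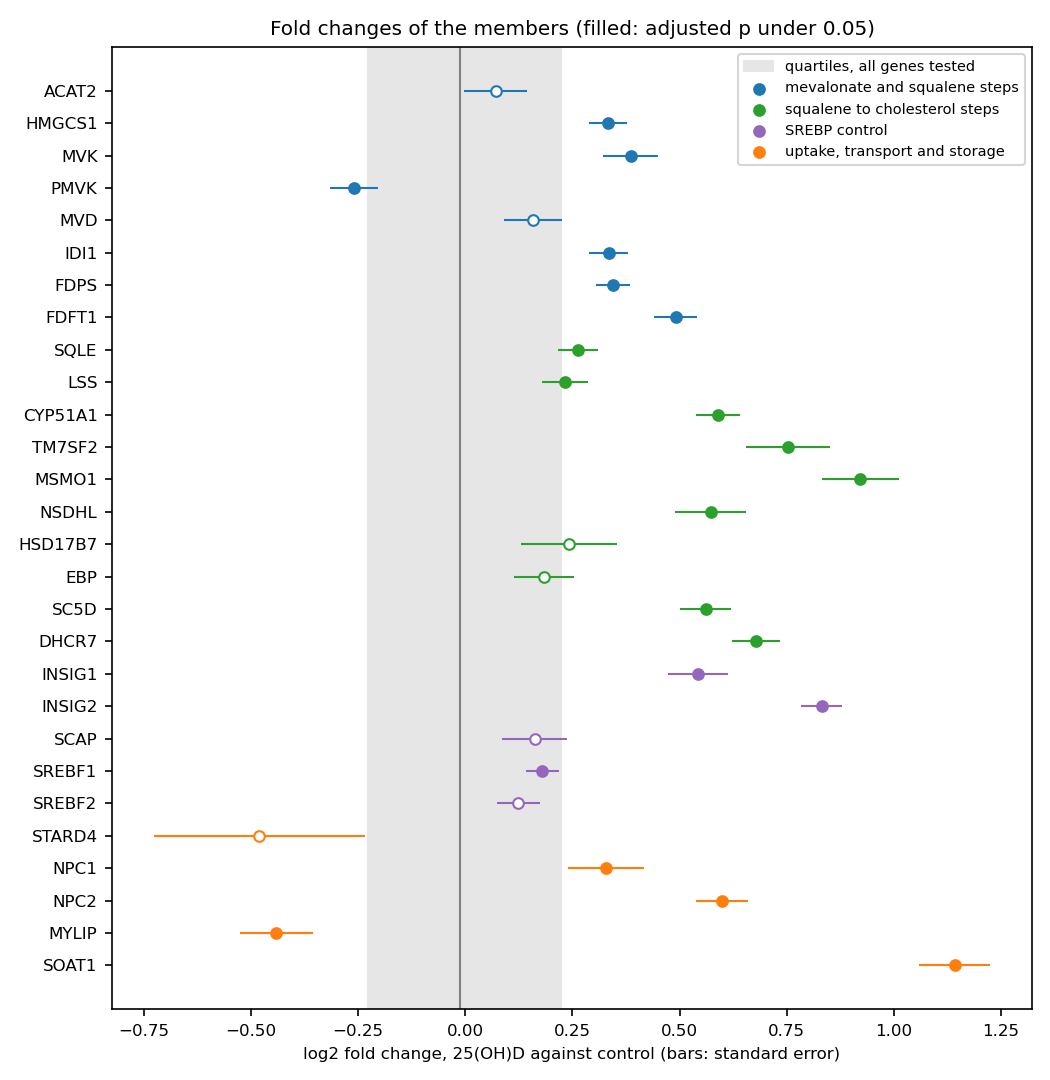
Log2 fold change of 25(OH)D against control for each of the 28 genes, with bars of 1 standard error, coloured by role, filled where the adjusted p was under 0.05. The grey band holds the middle 50% of all genes tested (quartiles -0.23 to 0.22), and SOAT1, MSMO1 and INSIG2 lie farthest to its right.

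Summed over the 8 early enzymes, the level was 171.5, 170.1 and 170.1 RPKM in control and 190.9, 192.0 and 181.0 in 25(OH)D, a ratio of the means of 1.10. Summed over the 10 later enzymes, it was 99.41, 101.0 and 101.0 RPKM in control and 133.6, 130.9 and 139.3 in 25(OH)D, a ratio of 1.34. The difference between these ratios was not tested. PMVK, the 1 early enzyme called lower, made up 49.1 of the mean early sum of 170.5 RPKM in control. It fell to 39.8 of 188.0 RPKM in 25(OH)D, which lowers the early ratio, and a sum without it was not taken. Neither sum overlapped between the groups, each with an exact permutation p of 0.1 (two-sided). The sum of all 18 enzymes was close to constant over the control libraries, at 271.0 ± 0.0958 RPKM, and reached 322.6 ± 2.20 RPKM in 25(OH)D (SD, n = 3 each).

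**Figure D3:**
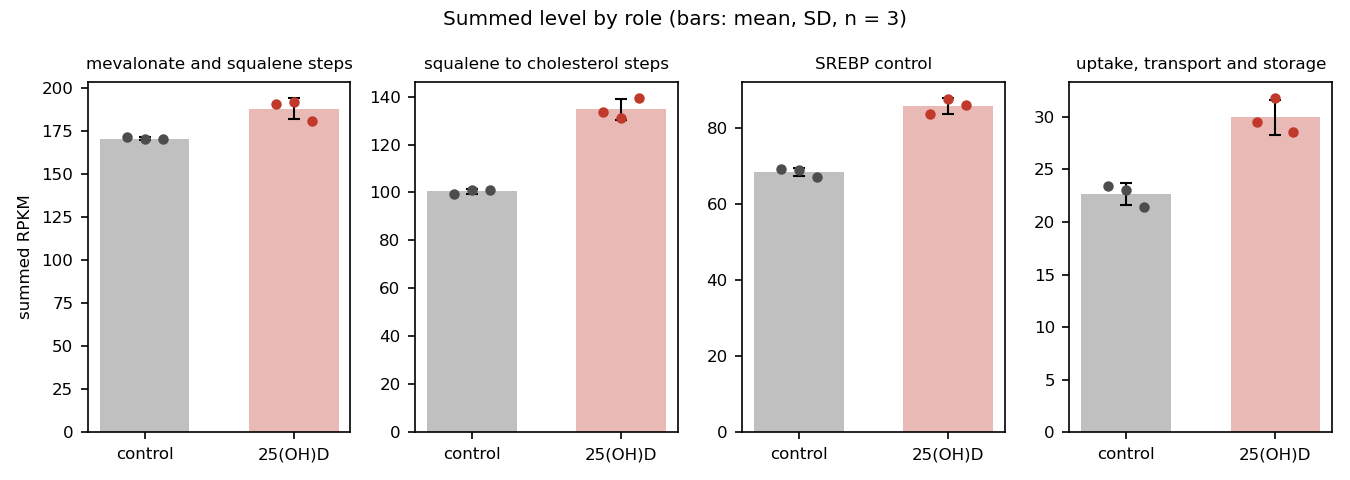
Summed RPKM of the genes of each role in every library, with the mean as a bar and the SD (n = 3) as a line, in control (grey) and 25(OH)D (red). The sums in 25(OH)D lie above those in control for each role, with ratios of the means from 1.10 in the early enzymes to 1.34 in the later ones. The early sum includes PMVK, which was abundant and lower in 25(OH)D.

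Among the genes of SREBP control, both INSIG genes were higher, and the transcripts of the factors and of their escort SCAP moved little. INSIG2, an anchor that holds SCAP in the endoplasmic reticulum while sterols are plentiful, lies on chromosome 2 (118088452 to 118110997, plus strand of GRCh38). It had 48.4, 49.9 and 51.1 CPM in control and 87.2, 87.8 and 90.8 in 25(OH)D. The libraries of each group lay close together and far from the other group. Its log2 fold change of 0.83 had the smallest p of the 28 genes (SE 0.0485, adjusted p = 7.98e-09). INSIG1, its relative and itself a target of the SREBPs (chromosome 7, 155297776 to 155310235, plus strand), had 39.99, 36.91 and 34.14 CPM in control and 51.55, 58.3 and 51.8 in 25(OH)D, a log2 fold change of 0.54 (SE 0.0702, adjusted p = 3.09e-05). The ratio of INSIG2 to INSIG1 in RPKM was 1.12, 1.25 and 1.38 in control and 1.56, 1.39 and 1.62 in 25(OH)D, with little distance between the groups (exact permutation p = 0.1, two-sided).

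SCAP, the escort protein, had 17.2, 17.2 and 18.1 CPM in control and 18.5, 19.4 and 21.0 in 25(OH)D. The difference did not pass (log2 fold change 0.16, SE 0.0755, adjusted p = 0.120). SREBF1, which encodes the SREBP-1 factors, was the most abundant regulator, with 201.2, 207.5 and 211.6 CPM in control and 227.0, 235.0 and 240.6 in 25(OH)D, a log2 fold change of 0.18 (SE 0.0394, adjusted p = 0.00255). SREBF2, which encodes SREBP-2, the factor most tied to cholesterol enzymes, had 128.9, 123.2 and 113.3 CPM in control and 133.9, 134.7 and 129.5 in 25(OH)D. The 25(OH)D values lay just above the highest control value (log2 fold change 0.12, SE 0.0498, adjusted p = 0.0713), and on the RPKM scale the groups overlapped. SREBF2 lay near the threshold and passed in some alternatives, with an adjusted p of 0.0222 without control replicate 1, 0.0458 without 25(OH)D replicate 3, 0.0481 without mitochondrial genes and 0.0457 with the replicate number as a block, and a range of 0.0222 to 0.329 over all alternatives. The ratio of SREBF1 to SREBF2 in RPKM was 1.60 ± 0.146 in control and 1.66 ± 0.0782 in 25(OH)D (SD, n = 3 each), and overlapped between the groups (exact permutation p = 0.6, two-sided). Counts per gene do not separate the SREBP-1a and SREBP-1c transcripts of SREBF1, and cleavage of the proteins was not measured.

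Promoter sequences are shown for 5 of the genes, to set the letters of known sterol elements beside these values. RefSeq windows on GRCh38.p14, from 250 bases before to 50 bases after a listed start, were matched for 25 of the 28 genes, with 32 windows in all. They were searched on both strands for the core of the sterol response element, TCACNCCAC, for the NF-Y box CCAAT, for the GC box GGGCGG, for the E-box CACGTG and for the direct repeat of the vitamin D response element. The core was also searched with at most 1 of its fixed letters changed, a search that includes the exact core. SREBF2 held the exact core on its own strand, from position -133 relative to the start, with an NF-Y box on the opposite strand from -106. The windows of MSMO1 and FDPS held the core with 1 letter changed beside NF-Y boxes, and the printed windows of DHCR7 and SOAT1 held NF-Y boxes only of these 2 elements. The windows lie at chr22:41832855-41833154 (plus strand), chr4:165327419-165327718 (plus), chr1:155308616-155308915 (plus), chr11:71448344-71448643 (minus) and chr1:179293547-179293846 (plus), and are given on the strand of the gene, with the core of the sterol element and the NF-Y boxes in capitals.
SREBF2: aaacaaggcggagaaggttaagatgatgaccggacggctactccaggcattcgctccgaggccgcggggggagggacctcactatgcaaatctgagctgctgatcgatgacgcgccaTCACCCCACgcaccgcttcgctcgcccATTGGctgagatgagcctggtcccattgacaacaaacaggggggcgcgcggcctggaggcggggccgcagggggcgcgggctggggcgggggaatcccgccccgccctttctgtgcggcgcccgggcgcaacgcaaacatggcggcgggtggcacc
MSMO1: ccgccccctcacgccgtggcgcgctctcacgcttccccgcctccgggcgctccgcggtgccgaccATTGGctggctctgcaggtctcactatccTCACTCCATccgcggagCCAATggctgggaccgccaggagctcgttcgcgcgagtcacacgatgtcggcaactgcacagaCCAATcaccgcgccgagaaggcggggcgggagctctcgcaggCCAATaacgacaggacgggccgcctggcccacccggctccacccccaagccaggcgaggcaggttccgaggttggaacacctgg
FDPS: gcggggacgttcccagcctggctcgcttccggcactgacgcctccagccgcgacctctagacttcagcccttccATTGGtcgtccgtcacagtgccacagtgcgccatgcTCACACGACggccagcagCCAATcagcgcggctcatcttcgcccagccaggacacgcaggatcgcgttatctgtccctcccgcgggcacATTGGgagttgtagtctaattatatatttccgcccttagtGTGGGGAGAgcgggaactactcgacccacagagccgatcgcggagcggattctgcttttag
DHCR7: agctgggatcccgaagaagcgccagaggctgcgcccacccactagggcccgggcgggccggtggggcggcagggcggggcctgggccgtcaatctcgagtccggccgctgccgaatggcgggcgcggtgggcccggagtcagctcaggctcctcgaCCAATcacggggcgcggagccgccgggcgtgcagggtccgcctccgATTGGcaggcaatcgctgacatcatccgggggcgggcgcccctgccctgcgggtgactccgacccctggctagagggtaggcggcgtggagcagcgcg
SOAT1: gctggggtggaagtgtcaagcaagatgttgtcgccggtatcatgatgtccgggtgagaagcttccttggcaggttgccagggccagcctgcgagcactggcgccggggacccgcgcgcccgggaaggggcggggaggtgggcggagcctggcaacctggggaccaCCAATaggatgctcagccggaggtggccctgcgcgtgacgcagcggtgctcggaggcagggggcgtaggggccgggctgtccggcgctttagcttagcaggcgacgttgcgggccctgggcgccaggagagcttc

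The exact core was found in 1 of the 32 windows, beside 1.13% of all 35116 windows. With at most 1 letter changed it was in 13 windows of 10 genes, 40.6%, beside 24.5% of all windows, and those genes were DHCR7, at another start, FDPS, HSD17B7, IDI1, INSIG1, MSMO1, MVK, NPC2, SC5D and SREBF2. The NF-Y box was in 65.6% of the windows of the 28 genes and 34.6% of all windows. The GC box was in 93.8% beside 45.0%, and the E-box in 15.6% beside 7.26%. The direct repeat of the vitamin D response element was in none of the 32 windows and in 0.0740% of all windows. All windows include those of noncoding genes, and windows of a gene with several starts can overlap, so the shares are a description.

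**Figure D4:**
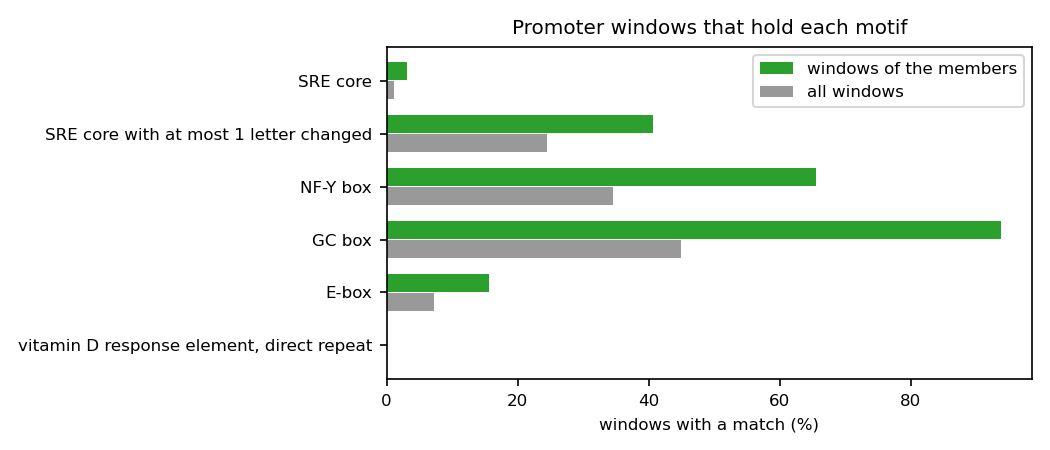
Percent of promoter windows of 300 bases that hold each motif on either strand, for the 32 windows of the 28 genes (green) and for all 35116 windows (grey). The shares are 65.6% against 34.6% for the NF-Y box and 93.8% against 45.0% for the GC box, and 0% against 0.0740% for the vitamin D response element.

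The transcripts of SOAT1, for storage, and of NPC1 and NPC2, for export from the lysosome, were higher. The transcript of MYLIP, which acts against lipoprotein receptors, was lower, and STARD4 did not pass. Uptake, storage and export themselves were not measured. SOAT1, which esterifies cholesterol for storage in lipid droplets (chromosome 1, 179293714 to 179358680, plus strand of GRCh38), had 12.8, 11.8 and 12.5 CPM in control and 24.7, 29.6 and 27.5 in 25(OH)D. Even the lowest 25(OH)D value lay far above the highest control value. Its log2 fold change of 1.14 was the largest of the 28 genes (SE 0.0827, adjusted p = 8.29e-08), a rise of 2.21-fold, and stayed between 1.08 and 1.21 when single libraries were dropped. NPC2, the soluble protein that takes cholesterol up inside the lysosome, had 39.3, 38.6 and 36.7 CPM in control and 57.8, 61.8 and 53.9 in 25(OH)D, a log2 fold change of 0.60 (SE 0.0616, adjusted p = 3.11e-06). NPC1, its partner in the lysosomal membrane, had 12.2, 12.85 and 11.03 CPM in control and 15.2, 14.3 and 15.8 in 25(OH)D, a log2 fold change of 0.33 (SE 0.0881, adjusted p = 0.00992). This call was lost when limma was run on log2(RPKM + 1), with an adjusted p of 0.0848, or on log2(RPKM + 0.1), with an adjusted p of 0.104. The NPC1 transcript was the scarcer of the pair, with 1.21 ± 0.0978 RPKM against 14.1 ± 0.567 for NPC2 in control (SD, n = 3 each).

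MYLIP, the ubiquitin ligase that sends lipoprotein receptors to degradation and is a target of the sterol sensor LXR, had 15.8, 16.4 and 14.3 CPM in control and 11.7, 11.1 and 11.5 in 25(OH)D. All 25(OH)D libraries lay below control, with a log2 fold change of -0.44 (SE 0.0855, adjusted p = 0.00104). STARD4, a carrier of free cholesterol in the cytosol, was the least abundant of the 28 genes, with 109, 57 and 68 counts in control and 46, 58 and 48 in 25(OH)D. Control replicate 1 stood above all other libraries, and the difference did not pass (log2 fold change -0.48, SE 0.246, adjusted p = 0.157). Without control replicate 1 the log2 fold change was -0.22. On the RPKM scale the groups of STARD4 did not overlap. The antisense gene STARD4-AS1, which shares 124 exon bases with it on the other strand, was lower with a log2 fold change of -0.93 (adjusted p = 0.00896).

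By length-scaled level the 28 genes spanned 138-fold in control, from 0.355 RPKM for STARD4 to 49.1 for PMVK. HMGCS1 with 36.7 ± 1.18 RPKM and FDPS with 30.9 ± 0.440 followed PMVK (SD, n = 3 each), and those 3 did not overlap. SREBF1 with 26.1 ± 0.568 RPKM, SQLE with 23.7 ± 0.976 and IDI1 with 21.97 ± 0.836 came next, and the libraries of SQLE and IDI1 overlapped. In 25(OH)D, HMGCS1 at 44.8 ± 2.33 RPKM was over PMVK at 39.8 ± 1.57 and FDPS at 38.1 ± 0.414 (SD, n = 3 each), and the libraries of PMVK and FDPS overlapped. Near the lower end, HSD17B7 with 1.96 ± 0.209 RPKM and SOAT1 with 1.79 ± 0.0759 overlapped in control, and in 25(OH)D SOAT1 at 3.83 ± 0.366 lay above HSD17B7 at 2.24 ± 0.157 (SD, n = 3 each).

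Exon bases shared with another gene were found for 14 of the 28 genes. Only CYP51A1 and TM7SF2, with 16 bases shared with VPS51, overlap a gene on their own strand. For the others the overlapping gene is on the opposite strand. The paper names a stranded library kit, and whether reads were counted by strand was not tested. The opposite-strand genes RP11-297N6.4 and AP001468.58, which share 217 and 448 exon bases with FDFT1 and LSS, had at most 3 counts in a library, while FDFT1 had at least 2411 and LSS at least 2302 counts. Among the 14 genes without shared bases, 8 were higher and 2 lower, with a median log2 fold change of 0.40. Over all genes tested 17.3% were higher and 16.5% lower, so the lower calls stood near the background. The pseudogene HSD17B7P2 had 45 to 84 counts in a library against 292 to 357 for HSD17B7, so reads may have been split between them. The opposite-strand genes CTD-2636A23.2 at HMGCS1, MMAB at MVK and C18orf8 at NPC1 had log2 fold changes of 0.33, 0.37 and 0.36, beside 0.33, 0.39 and 0.33 for their partners. Others lay farther from theirs, IDI2-AS1 with 0.43 beside 0.33 for IDI1, RUSC1-AS1 with 0.25 beside 0.34 for FDPS, AP001469.5 with 0.48 beside 0.23 for LSS and ISCA2 with 0.078 beside 0.60 for NPC2. RAI1 had 0.15 beside 0.18 for SREBF1, RP5-821D11.7 had 0.15 beside 0.12 for SREBF2, and at ACAT2 SOD2 had 0.090 and TCP1 -0.10 beside 0.070.

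Other genes around sterols were taken as 7 further lists, also chosen with earlier results of these data known. They held 84 genes in all, of which 75 were tested. Of these, 28 were higher and 6 lower, 37.3% and 8.0% beside 17.3% and 16.5% of all genes tested, with a median log2 fold change of 0.090. In the list of SREBP cleavage and sterol-regulated degradation, 5 of 13 were higher, 38.5%, and 1 lower, 7.69%. MARCH6, a ubiquitin ligase of the endoplasmic reticulum that removes squalene epoxidase, rose from 129.4 ± 4.15 to 166.9 ± 6.85 CPM (SD, n = 3 each), which is 0.37 on the log2 scale (adjusted p = 1.63e-05). RNF145, another ligase of that membrane, fell with a log2 fold change of -1.16 on few reads, 125, 70 and 66 counts in control and 36, 46 and 24 in 25(OH)D (adjusted p = 0.00488). Of 8 partners of the sterol enzymes, 4 were higher, 50%, and 1, LBR, lower, 12.5%. PGRMC2, a haem-binding membrane protein related to the P450 partner PGRMC1, had a log2 fold change of 0.67 (SE 0.0531, adjusted p = 2.24e-07). Of 14 genes of the isoprenoid branches, 5 were higher, 35.7%, led by RABGGTB, a subunit of the enzyme that prenylates RAB proteins (log2 fold change 0.58, adjusted p = 1.74e-06).

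Of 18 tested genes of lipoprotein receptors and sterol transport, 3 were higher and 3 lower, 16.7% each, close to the shares over all genes tested. SCARB1, the receptor for HDL, had 204, 178 and 156 counts in control and 34, 86 and 73 in 25(OH)D, a log2 fold change of -1.34 (SE 0.243, adjusted p = 0.000589), and 25(OH)D replicate 1 was the lowest library. OSBPL1A, an oxysterol-binding protein, had a log2 fold change of 0.37 (adjusted p = 0.000661). Of 5 tested genes of LXR and its targets, the single call was lower, 20%, close to the 16.5% of all genes tested that were lower. It was ABCG1, a cholesterol exporter, with 26.65 ± 1.13 CPM in control and 19.0 ± 1.03 in 25(OH)D (SD, n = 3 each). Its log2 fold change was -0.49 (adjusted p = 9.11e-05).

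Of 6 tested genes of sterol esters and oxysterols, 2 were higher, 33.3%, beside 17.3% of all genes tested. SULT2B1, a sulfotransferase that acts on cholesterol and related sterols, had 66, 48 and 42 counts in control and 350, 361 and 324 in 25(OH)D. No other gene of the 7 lists moved as far, with a log2 fold change of 2.86 (SE 0.148, adjusted p = 2.10e-09). Of 11 tested SREBP targets of fatty acid synthesis, 9 were higher, 81.8%, beside 17.3% of all genes tested. The median over the list was 0.52 on the log2 scale. FADS1, the delta-5 desaturase, rose from 39.8 ± 3.19 to 78.7 ± 5.16 CPM (SD, n = 3 each), which is 0.98 on the log2 scale (adjusted p = 4.54e-08).

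**Figure D5:**
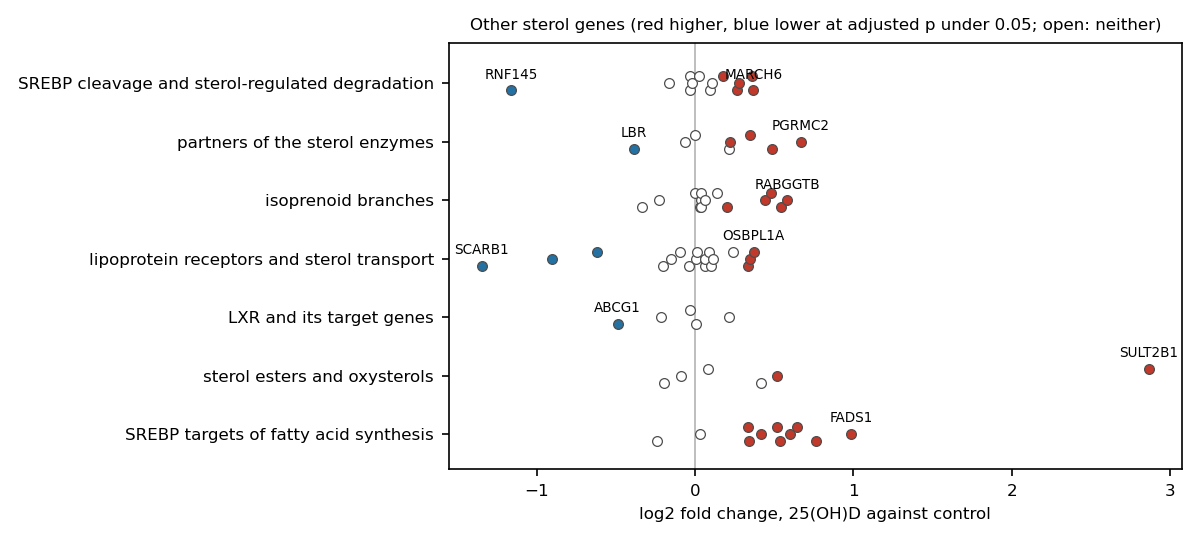
Log2 fold change of 25(OH)D against control for the 75 tested genes of the 7 further lists, 1 point per gene, red where higher, blue where lower and open where the adjusted p was not under 0.05. SULT2B1 stands at 2.86, the genes of fatty acid synthesis lie mostly to the right of 0, and SCARB1 and RNF145 lie farthest to the left.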

How the data were processed

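mRNA of MDA-MB-453 cells was sequenced in 6 libraries, grouped by their titles. The authors deposited raw counts per gene and RPKM values, made by the sequencing company. Per the labels, Trimmomatic 0.36, featureCounts of Subread 1.5.1, edgeR 3.12.1 and GRCh38 were used, and the aligner and annotation are not given in the sources used here. The deposited RPKM equal the count divided by gene length and library total (largest relative difference 2.23e-13), so both tables hold 1 measurement. The counts within each group differed by more than sampling noise (3.85 to 11.2 as chi-square per gene).

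Counts were fitted in R 4.3.3 with edgeR 4.0.16 (TMM, filterByExpr with a minimum count of 10, quasi-likelihood test without covariates). DESeq2 1.42.0 and limma 3.58.1 served as alternatives, and the other steps used Python 3.11.15. The fits were tested on simulated data. The depth of 33268860 to 40928176 counts leaves 3 counts worth 0.07205 to 0.0921 CPM. Single values were compared by exact permutation. The members and lists were chosen with earlier results of these data known. Named were all 28 members and, in each further list, the called gene with the largest change in each direction. Sequences are from RefSeq. The spans of 26 of the 28 genes equal those of GENCODE 29. The lists hold only part of the pathway, and 1 epithelial marker is not reported here.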

Additional observations from a re-analysis of the deposited data

How the results depend on the processing

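Of the values of the 28 genes under 15 alternatives, 410 of 420 kept their direction and their side of the threshold, 2 lost the call and 8 gained one, and none turned. The median log2 fold change of the 28 genes, 0.33, was 0.2898 with library sizes alone and 0.2926 with upper-quartile factors. The median of all genes tested moved as well, by -0.0441 and -0.0415 in these settings. With limma the median of the 28 genes was 0.2888 on log2(RPKM + 0.1) and 0.2805 on log2(RPKM + 1), where that of all genes tested moved by -0.0406 and -0.0188. Without the genes that share exon bases the median of the rest was 0.4027, and 8 of 14 genes were higher, beside 17.3% of all genes tested. When single libraries were dropped, the median lay between 0.3201 and 0.3587, the genes called higher numbered between 19 and 22, and those past the fold limit between 1 and 2, the second being MSMO1 without control replicate 1. On log2(RPKM + 1) 0 genes passed the fold limit, since that scale understates the change of low genes. The same replicate numbers did not pair the samples (correlations of deviations -0.0721, -0.0120 and -0.0460), and with the replicate block 20 genes were higher and 2 lower, SREBF2 being added (adjusted p = 0.0457). EBP (adjusted p = 0.0442) and SREBF2 (adjusted p = 0.0481) were also called without mitochondrial genes. The named genes of the 7 further lists kept their calls in 150 of 150 values. Depth limits STARD4 most, whose mean was 64.3 counts.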
